A study of Mus musculus with 10 samples.

Results

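The genes described here encode the enzymes and carriers that take fatty acids into mitochondria, shorten them by beta-oxidation and turn part of the product into ketone bodies in the liver. The 29 genes were found by symbol in the deposited gene table, where all 29 were listed among 17359 genes, and all 29 passed the filter on low counts with 12789 genes in all. The lowest count of any of them in any library was 389.

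Livers came from mice on a high-fat diet, which every group shared. One set came from the low-calorie phase, taken on day 3 of a weekly cycle when intake was cut by 70% (LC, n = 4), and another from the refeeding phase, taken on day 7 (RF, n = 3). Both were set against livers of mice fed ad libitum (AL, n = 3). In that cycle days 1 and 4 brought a 50% cut, days 2 and 3 the 70% cut, and feeding was free on days 5 to 7. The labels do not say that the libraries come from separate animals, and each p therefore speaks of the spread between libraries, which may be technical. The labels used here give no strain, sex, age, hour of collection or last meal.

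In beta-oxidation, a fatty acid is activated to its CoA ester, passed across the mitochondrial membranes as a carnitine ester, and cut from the carboxyl end in rounds of dehydrogenation, hydration, a second dehydrogenation and thiolysis. The electrons of the first step go through the electron transfer flavoprotein to ubiquinone. In liver, the acetyl-CoA can be joined into ketone bodies, which other organs burn during fasting, and malonyl-CoA, the first product of fatty acid synthesis, blocks entry at the carnitine step.

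On day 3 of restriction, transcripts for short-chain steps of the spiral (Acads, Echs1 and Hadh), for the isomerase Eci1 and for the ketone body enzymes Acat1 and Bdh1 were lower by 0.68 to 0.99 on the log2 scale. Those of the long-chain dehydrogenases Acadvl and Acadl and of the trifunctional protein were not called. Hadhb was, though, called with DESeq2 and both trifunctional subunits with voom. The carnitine shuttle genes Slc25a20 and Cpt2 and the dehydrogenase Acad9 (-0.64, adjusted p = 0.00237) were also called lower. The calls were thus not confined to short-chain steps. No difference between short-chain and long-chain genes was tested. A gene was called where its Benjamini-Hochberg adjusted p from edgeR's quasi-likelihood test, over all genes tested, was below 0.05. At LC against AL, 9 of the 29 genes were called lower (31%, against 15.6% of all genes tested) and 1 was called higher (3.45%, against 16% of all genes tested). In either direction the share was 34.5%, close to the 31.5% of all genes tested, so the number of calls did not set these genes apart. The genes called lower were the carnitine carrier Slc25a20, the transferase Cpt2, the dehydrogenases Acads and Acad9, the hydratase Echs1, the second dehydrogenase Hadh, the isomerase Eci1, and the ketone body enzymes Acat1 and Bdh1, and the gene called higher was Acsm5. At RF against AL none was called. In bulk liver, fewer cells of a type and less RNA per cell cannot be told apart.

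**Figure D1:**
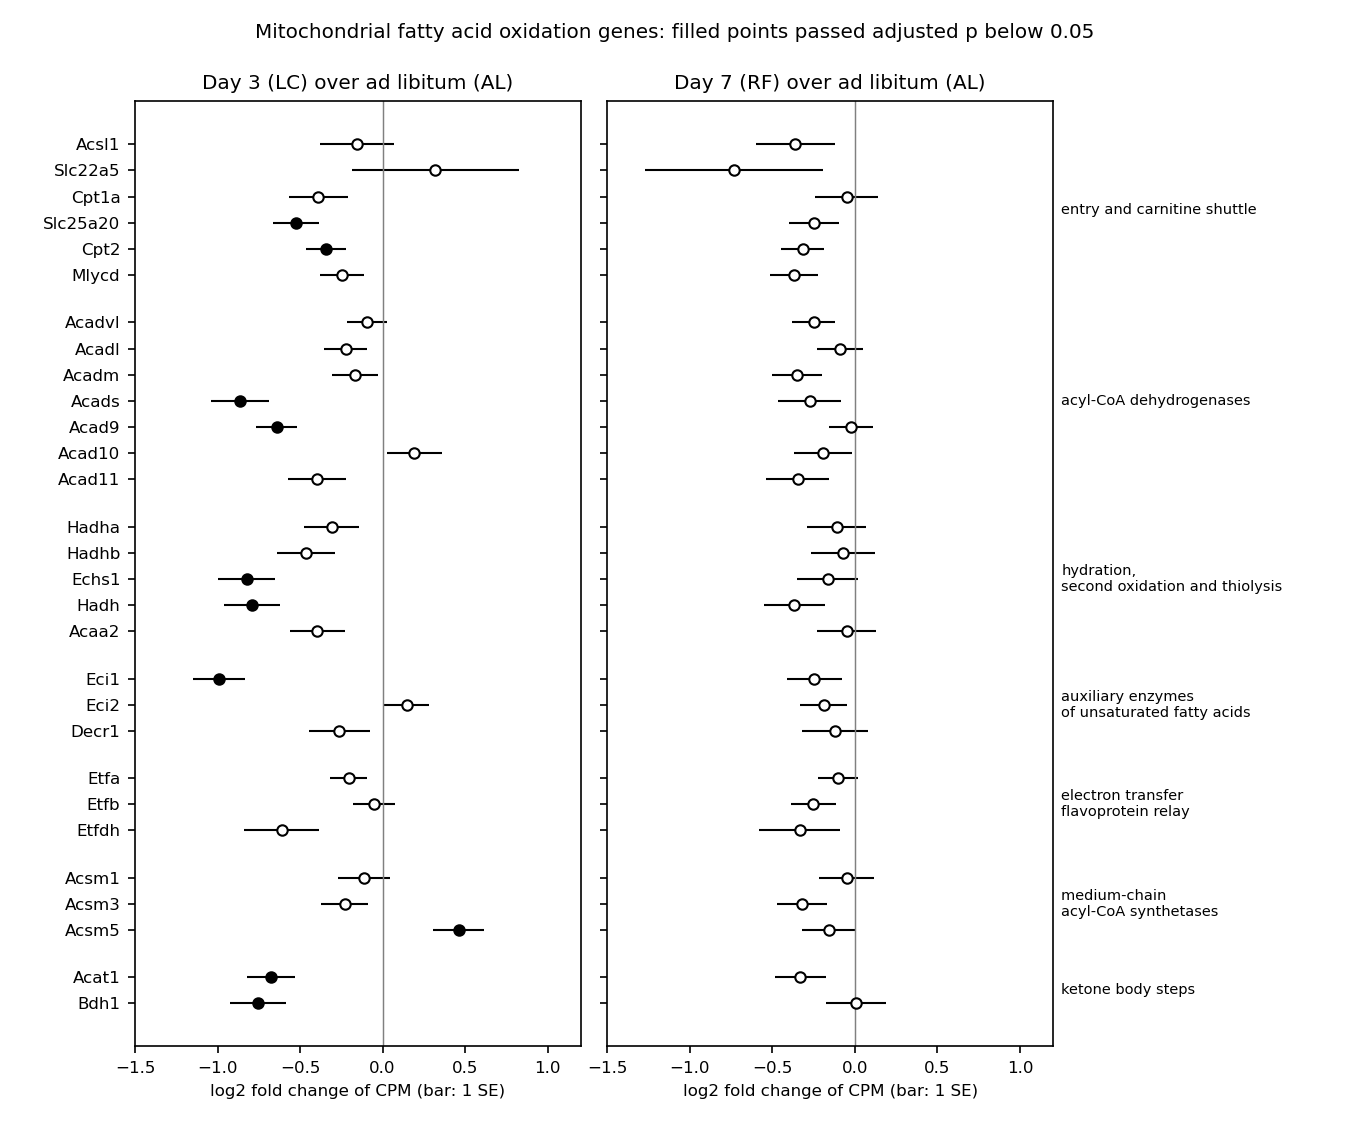
Log2 fold change of each gene on day 3 (left) and day 7 (right) over ad libitum livers, ordered by role, with bars of 1 SE and filled points for adjusted p below 0.05. On day 3, 25 of the 29 points lie below 0 with trimmed-mean scaling, and 9 of those are filled. On day 7, 28 of 29 lie below 0 and none is filled.

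The scaling of the libraries decided how the whole group sat against 0. The median log2 fold change of the 29 genes at LC against AL was -0.31, beside 0.05 for all genes tested, with 25 genes below 0 and 4 above. With library totals alone, which moved the median of all genes to 0.36, the median of the 29 was 0.01, with 14 below 0 and 15 above. In both scalings the 29 lay about as far below the median of all genes. With totals alone, 6 of the 9 genes called lower were still called (Acads, Acad9, Echs1, Hadh, Eci1 and Acat1), and Acsm5, Acad10 and Eci2 were called higher. That is 20.7% of the 29 lower, against 5.36% of all genes tested, and 10.3% higher, against 34.4%. Of all genes called, 50.7% were higher with trimmed-mean scaling and 86.5% with totals alone.

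**Figure D2:**
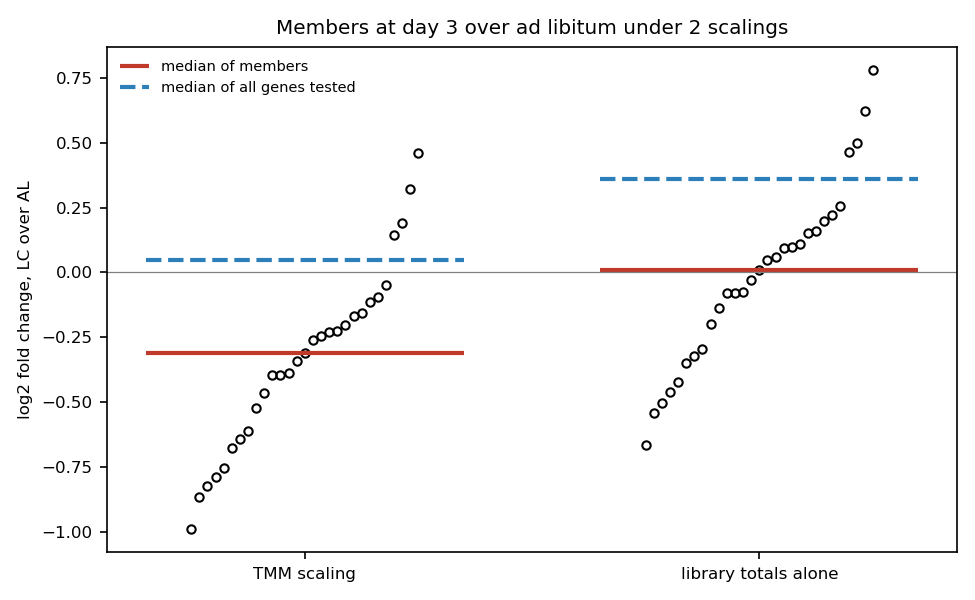
Log2 fold change of the 29 genes at LC over AL, each circle a gene, under trimmed-mean (TMM) scaling and under library totals alone. The solid line is the median of the 29 genes (-0.31 and 0.01) and the dashed line the median of all genes tested (0.05 and 0.36).

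Promoter sequence was at hand for 25 of the 29 genes in a RefSeq table of build GRCm38.p6, as 27 windows of 250 bases before to 50 bases after a start site. A site of the DR1 form, a direct repeat bound by PPARA with its partner RXR, was searched on both strands as 2 copies of AGGTCA parted by 1 base, with up to 2 mismatches in all. It was found in 3 of the 27 windows (11.1%, against 3.86% of 32851 promoters), those of Echs1, Etfa and Slc25a20. The half-site AGGTCA, which a full DR1 contains, was in 5 windows (18.5%, against 16.3%), the GC box GGGCGG in 17 (63%, against 35.7%) and the CCAAT box in 12 (44.4%, against 37.4%). A match is only a run of letters, and binding was not measured. Echs1 and Etfa are shown because both hold the repeat while the first was called at LC and the other was not. Acsm5 is shown because it was called higher at LC, and Hadhb because its 250 bases lie inside the 273 bases that part its start from that of Hadha, the partner subunit read from the other strand. All are printed 5′ to 3′ on the gene's own strand, with the DR1 in capitals for Echs1 (chr7:140116422-140116671, minus strand) and Etfa (chr9:55512244-55512493, minus strand, where the repeat reads AGGGCAAAGGTAA on the other strand), GC boxes on the printed strand in capitals for Hadhb (chr5:30155003-30155252, plus strand), and the CCAAT box, as its reverse complement, in capitals for Acsm5 (chr7:119526015-119526264, plus strand).
Echs1: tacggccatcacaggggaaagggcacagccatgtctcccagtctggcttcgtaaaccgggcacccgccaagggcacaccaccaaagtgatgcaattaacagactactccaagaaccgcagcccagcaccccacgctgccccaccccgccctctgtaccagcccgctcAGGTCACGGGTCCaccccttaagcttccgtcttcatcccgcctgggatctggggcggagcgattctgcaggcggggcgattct
Etfa: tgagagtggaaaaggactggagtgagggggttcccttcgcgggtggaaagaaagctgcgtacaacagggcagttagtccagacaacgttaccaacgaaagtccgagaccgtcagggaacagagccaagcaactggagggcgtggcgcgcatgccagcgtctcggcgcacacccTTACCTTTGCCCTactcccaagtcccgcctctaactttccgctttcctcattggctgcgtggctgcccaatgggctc
Hadhb: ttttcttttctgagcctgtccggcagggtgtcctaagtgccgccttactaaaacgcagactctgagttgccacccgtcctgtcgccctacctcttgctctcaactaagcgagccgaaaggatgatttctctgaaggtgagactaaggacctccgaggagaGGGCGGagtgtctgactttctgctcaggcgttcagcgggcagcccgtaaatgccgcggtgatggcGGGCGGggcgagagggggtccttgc
Acsm5: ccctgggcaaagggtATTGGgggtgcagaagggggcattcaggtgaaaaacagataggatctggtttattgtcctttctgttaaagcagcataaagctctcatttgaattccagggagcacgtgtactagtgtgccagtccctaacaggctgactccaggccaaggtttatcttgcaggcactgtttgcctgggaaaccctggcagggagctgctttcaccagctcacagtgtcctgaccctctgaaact

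Of the 6 genes of entry and the carnitine shuttle, 2 were called lower at LC and none higher. Slc25a20, the carrier that swaps acylcarnitine for carnitine across the inner membrane, had 141, 165, 156 and 158 CPM (counts brought to a common library size by trimmed-mean scaling) in LC livers, 182, 179 and 199.8 CPM in RF livers, and 180.1, 271 and 216 CPM in AL livers. All LC livers lay below all AL and RF livers. The log2 fold change at LC was -0.52 (SE 0.14, adjusted p = 0.013), and the call, which held in 17 of 22 alternatives, was lost without AL replicate 3 (-0.36, adjusted p = 0.0971) and with library totals alone (-0.20, adjusted p = 0.218).

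Cpt2 encodes the inner-membrane transferase that gives the acyl group back to CoA. It had 131, 161, 138 and 149 CPM in LC livers, 145, 147 and 149 CPM in RF livers, and 186, 199 and 164 CPM in AL livers. RF livers fell within the range of LC livers, and both lay below all AL livers. At LC the log2 fold change was -0.34 (SE 0.12, adjusted p = 0.0443), the weakest of the 9 calls: it held in 7 of 22 alternatives, and with totals alone the fold change was -0.03 (adjusted p = 0.862). Among libraries left out, it held without AL replicate 4 or LC replicate 2, and each of the other 8 removals ended it, with adjusted p of 0.0559 to 0.184. At RF against AL it was -0.32 (SE 0.13), with an adjusted p of 0.406.

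Cpt1a encodes the outer-membrane transferase that malonyl-CoA inhibits, the control point of the pathway. Its level was 299, 536, 375 and 372 CPM in LC livers, 513, 462 and 526 CPM in RF livers, and 434, 577 and 542 CPM in AL livers. LC replicate 2 lay among the AL livers and the other 3 LC livers lay below them. The log2 fold change of -0.39 (SE 0.18) missed the call at an adjusted p of 0.111, and it was called without LC replicate 2 (-0.57, adjusted p = 0.0143) and with voom (-0.53, adjusted p = 0.0159).

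With no replicate block, edgeR called none of the other 3 genes of entry in any comparison. Acsl1, the synthetase that activates long-chain fatty acids, averaged 1668 ± 504 CPM in LC livers, 1447 ± 85.1 CPM in RF livers and 1858 ± 507 CPM in AL livers (SD, n = 4, 3 and 3). Mlycd, which breaks down malonyl-CoA, averaged 134 ± 22.1 CPM in LC livers, 123 ± 3.99 CPM in RF livers and 159 ± 6.65 CPM in AL livers. Its RF livers, at 118 to 126 CPM, lay below all AL livers, at 153 to 166 CPM (log2 fold change -0.37, SE 0.14, adjusted p = 0.382). Its unadjusted p of 0.0225 was the lowest of the 29 in that comparison.

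Slc22a5, the carnitine transporter of the cell membrane, had the largest SE of the 29. It stood at 225, 583, 388 and 367 CPM in LC livers, at 58.2, 271 and 236 CPM in RF livers, and at 369, 344 and 226 CPM in AL livers. RF replicate 1 lay far below every other library. The log2 fold changes were 0.32 (SE 0.50) at LC and -0.73 (SE 0.54) at RF against AL, and neither was called. Its counts were not whole, which marks reads split with another gene, and the neighbouring Slc22a21 held 25.7 counts in RF replicate 1, where Slc22a5 held 819.

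**Figure D3:**
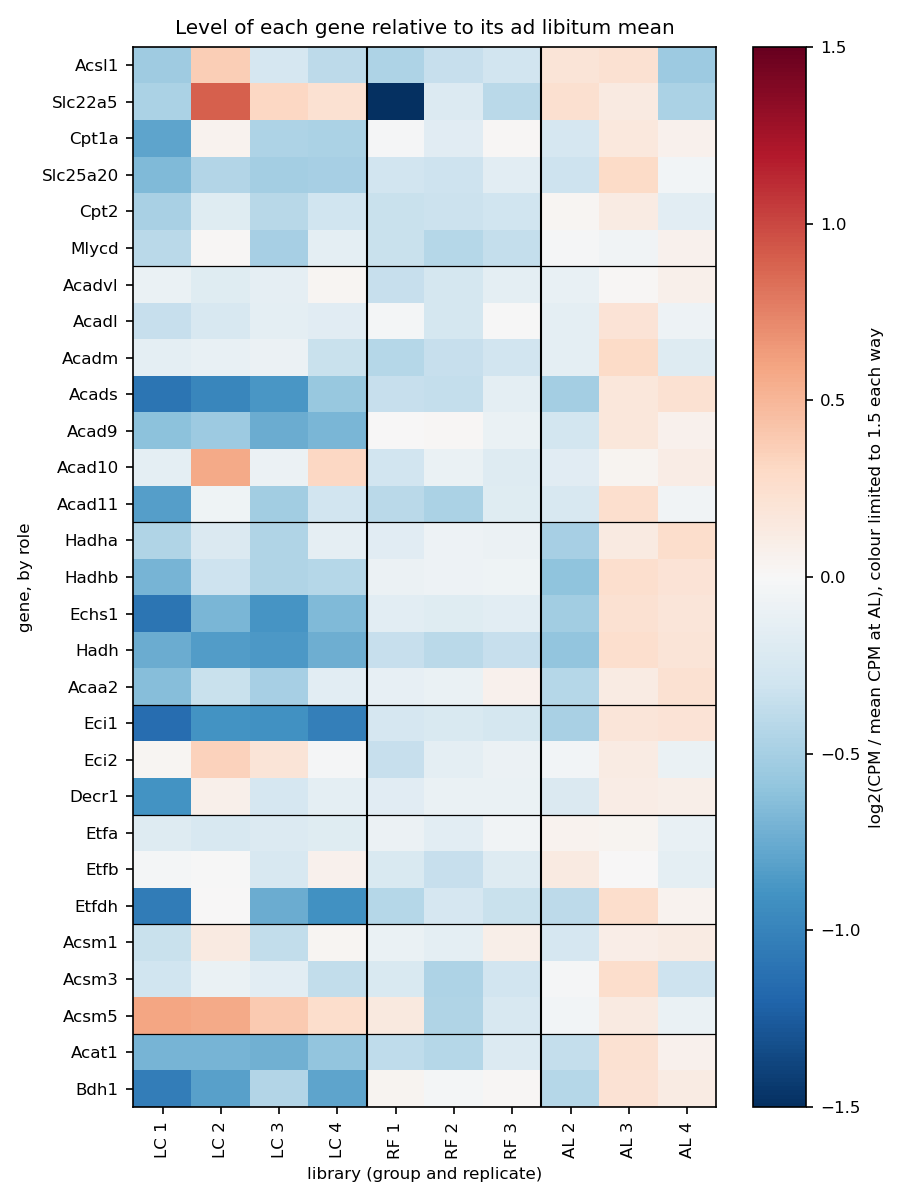
Level of each of the 29 genes in each library as log2 of CPM over the mean CPM of AL livers (colour limited to 1.5 each way), rows by role and columns by group. All LC columns are blue in Acads, Acad9, Echs1, Hadh, Eci1, Acat1 and Bdh1, and all are red in Acsm5. Etfdh is also blue in LC replicates 1, 3 and 4, and Slc22a5 is red in LC replicate 2. AL replicate 2 is bluer than the other AL livers in many rows.

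Of the 7 acyl-CoA dehydrogenases, Acads and Acad9 were called lower at LC and none higher. Each enzyme takes the first electrons from a fatty acyl-CoA, and Acadvl, Acadl, Acadm and Acads encode the enzymes for very long, long, medium and short chains. Acadvl had 525, 499, 512 and 578 CPM in LC livers, 445, 470.2 and 509 CPM in RF livers, and 524, 571 and 597 CPM in AL livers. Acadm had 437, 447, 456 and 383 CPM in LC livers, 359, 382 and 397 CPM in RF livers, and 438, 591 and 422 CPM in AL livers. For both, LC and AL livers overlapped, the log2 fold changes at LC being -0.09 (SE 0.12) and -0.17 (SE 0.14), with adjusted p of 0.579 and 0.386. RF livers lay below all AL livers for both, without a call (-0.25, SE 0.13, adjusted p = 0.503 for Acadvl and -0.35, SE 0.15, adjusted p = 0.427 for Acadm). With totals alone, Acadvl (-0.36, adjusted p = 0.0386) and Acadm (-0.39, adjusted p = 0.0429) were called lower at RF against LC. Acadl stood at -0.22 (SE 0.13, adjusted p = 0.206) at LC.

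Acads, at the short end, fell on day 3. It had 73.5, 79.5, 85.9 and 106 CPM in LC livers, 124, 123 and 142 CPM in RF livers, and 110.4, 177 and 184 CPM in AL livers. The highest LC liver lay just under the lowest AL liver, replicate 2. At LC the log2 fold change was -0.87 (SE 0.18, adjusted p = 0.00309), and it was called lower in all 22 alternatives. At RF against LC it was 0.59 (SE 0.18, adjusted p = 0.0297), and that call held in 12 of 22, being lost with totals alone (0.39, adjusted p = 0.0938) and on leaving out any 1 of LC replicates 1 to 3 or of the RF livers (0.52 to 0.63, adjusted p of 0.0554 to 0.109).

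Acad9, which in human cells is also an assembly factor of respiratory complex I, was low in every LC liver. Its level was 26.4, 27.7, 24.0 and 25.1 CPM in LC livers, 40.5, 40.7 and 37.5 CPM in RF livers, and 33.3, 45.3 and 42.2 CPM in AL livers. LC livers lay below all others, and RF livers fell within the range of AL livers. The log2 fold change was -0.64 (SE 0.12, adjusted p = 0.00237) at LC against AL and 0.62 (SE 0.12, adjusted p = 0.00481) at RF against LC, and both calls held in all 22 alternatives. The last 2 members of the family were not called at LC: Acad11 at -0.40 (SE 0.18, adjusted p = 0.101) and Acad10 at 0.19 (SE 0.17, adjusted p = 0.399). Acad11 was, though, called lower with voom (-0.52, adjusted p = 0.0228) and without LC replicate 2 (-0.52, adjusted p = 0.035). Acad10 was called higher with totals alone (0.50, adjusted p = 0.0192).

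Hydration, the second oxidation and thiolysis are done by the trifunctional protein for long chains and by single enzymes for shorter ones. Hadha, the hydratase and dehydrogenase subunit of the trifunctional protein, had 161, 190.2, 161 and 201 CPM in LC livers, 196, 210.4 and 208 CPM in RF livers, and 156, 242 and 265 CPM in AL livers. Hadhb, its thiolase subunit, had 131, 171, 154 and 158 CPM in LC livers, 199.7, 201 and 203 CPM in RF livers, and 139, 252 and 244 CPM in AL livers. For both, AL replicate 2 lay within or below the LC livers while the other 2 AL livers lay above them. The log2 fold changes of -0.31 (SE 0.17, adjusted p = 0.17) for Hadha and -0.46 (SE 0.18, adjusted p = 0.0614) for Hadhb were not called. Without AL replicate 2 both were, at -0.51 (adjusted p = 0.0113) and -0.69 (adjusted p = 0.00157). Both were also called with voom, at -0.41 (adjusted p = 0.0367) and -0.60 (adjusted p = 0.00799), and Hadhb with DESeq2 (-0.50, adjusted p = 0.0398).

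Of the single enzymes, Echs1 and Hadh were called lower at LC and Acaa2 was not. Echs1, the short-chain enoyl-CoA hydratase whose DR1-bearing promoter is printed above, had 92.8, 123, 107 and 125 CPM in LC livers, 177, 175 and 177 CPM in RF livers, and 138, 232 and 225 CPM in AL livers. LC livers lay below all others, and the RF livers were nearly equal to each other. The log2 fold change was -0.82 (SE 0.17, adjusted p = 0.00341) at LC against AL, called in all 22 alternatives, and 0.66 (SE 0.17, adjusted p = 0.016) at RF against LC.

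Hadh encodes the dehydrogenase of the second oxidation for short and medium chains. It had 213, 199, 196 and 215 CPM in LC livers, 281, 268 and 279 CPM in RF livers, and 236, 424 and 408 CPM in AL livers. At LC it was -0.79 (SE 0.17, adjusted p = 0.00415), while at RF against LC the 0.42 (SE 0.17) was not called at an adjusted p of 0.0917, though no RF liver overlapped an LC liver. Hadh was called there with voom (adjusted p = 0.0401), with the compared groups only (0.0187) and without AL replicate 2 (0.0112). RF livers lay between the lowest AL liver and the other 2, at -0.37 (SE 0.18, adjusted p = 0.49) against AL. Acaa2, the medium-chain thiolase, averaged 819 ± 119 CPM in LC livers, 1041 ± 78.2 CPM in RF livers and 1078 ± 243 CPM in AL livers (SD, n = 4, 3 and 3), with a log2 fold change at LC of -0.40 (SE 0.17, adjusted p = 0.0851) that was called without AL replicate 2 (-0.57, adjusted p = 0.0108) and with voom (-0.49, adjusted p = 0.0192).

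**Figure D4:**
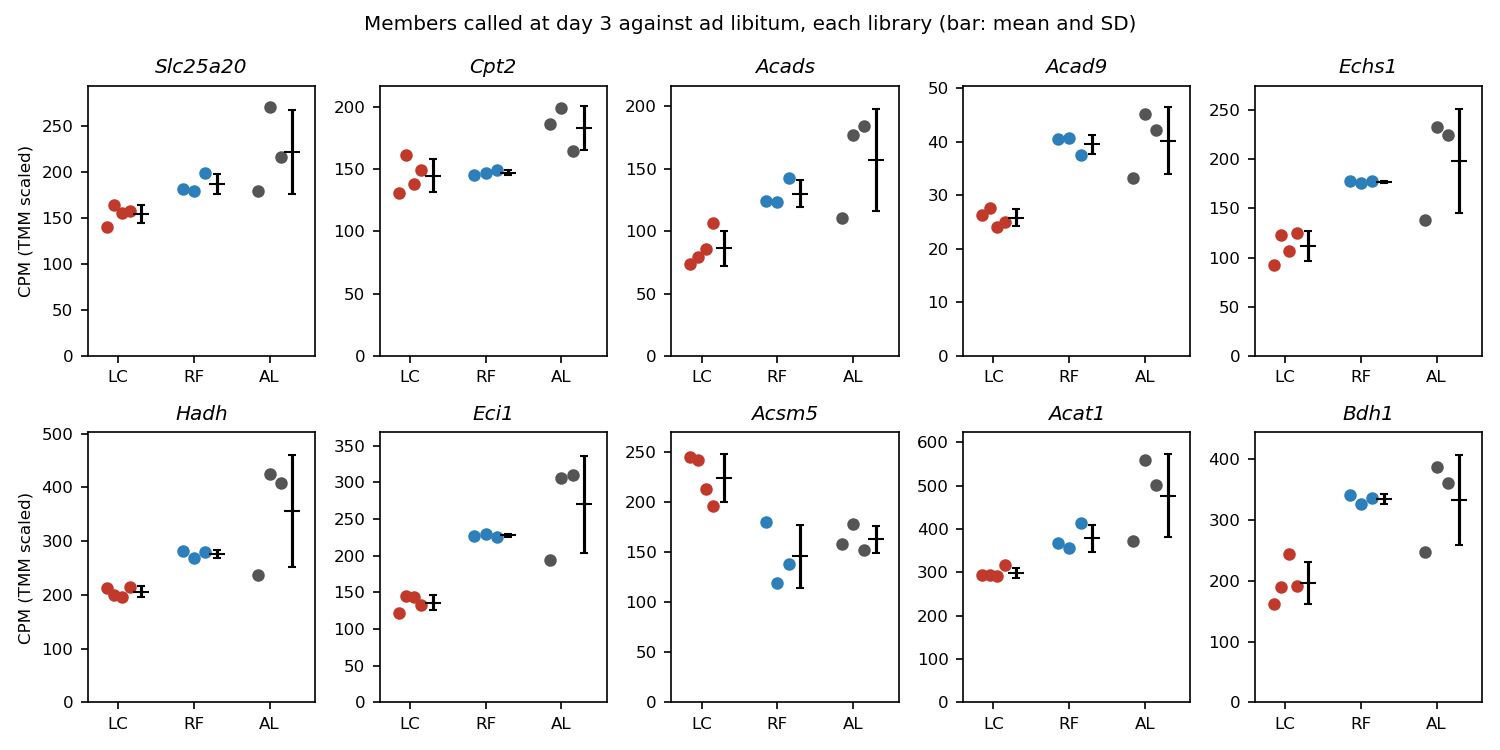
CPM of the 10 genes called at LC against AL in each library of LC, RF and AL livers, with the mean and SD beside each group. In all 10 panels the LC points do not overlap the AL points. RF points are tightly grouped in Echs1, Eci1 and Cpt2, and AL replicate 2 is the lowest AL point in every panel but those of Cpt2 and Acsm5.

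With trimmed-mean scaling, Eci1 showed the largest change of the 29 genes at LC against AL (with totals alone Acsm5 did, at 0.78, beside -0.67 for Eci1). It encodes the enoyl-CoA isomerase that moves the double bond of unsaturated fatty acids into place for the spiral. Eci1 had 122, 145, 143 and 133 CPM in LC livers, 227, 230.2 and 226 CPM in RF livers, and 193, 306 and 310.2 CPM in AL livers. No LC liver reached the lowest AL or RF liver. The log2 fold change was -0.99 (SE 0.16, adjusted p = 0.000775) at LC against AL and 0.75 (SE 0.16, adjusted p = 0.00565) at RF against LC, both called in all 22 alternatives. Eci2, a second isomerase found in mitochondria and peroxisomes, averaged 413 ± 49.2 CPM in LC livers, 328 ± 30.6 CPM in RF livers and 374 ± 31.2 CPM in AL livers (SD, n = 4, 3 and 3), and its 0.15 (SE 0.13, adjusted p = 0.433) at LC was not called. All RF livers lay below all LC livers (RF against LC -0.34, SE 0.14, adjusted p = 0.091). Decr1, the dienoyl-CoA reductase, stood at -0.26 (SE 0.19, adjusted p = 0.301) at LC.

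None of the 3 genes of the electron relay was called with edgeR over all 10 libraries with trimmed-mean scaling. Etfa and Etfb encode the subunits of the electron transfer flavoprotein, and Etfdh the enzyme that hands its electrons to ubiquinone. Etfa averaged 479.8 ± 8.64 CPM in LC livers, 516 ± 17.3 CPM in RF livers and 553 ± 34.2 CPM in AL livers (SD, n = 4, 3 and 3), with all LC livers below all AL livers (-0.20, SE 0.11, adjusted p = 0.183, and called with DESeq2 at -0.23, adjusted p = 0.0408). Etfb stood at -0.05 (SE 0.13, adjusted p = 0.789) at LC and at -0.25 (SE 0.14, adjusted p = 0.521) at RF against AL, where no RF liver reached the lowest AL liver. With totals alone Etfb was called lower at RF against LC (-0.40, adjusted p = 0.0289). Etfdh had 97.8, 202, 121 and 108 CPM in LC livers, against 154, 242 and 209.7 CPM in AL livers, and its -0.61 (SE 0.23) missed the call at an adjusted p of 0.0589. It was called without LC replicate 2 (-0.89, adjusted p = 0.00224) or without AL replicate 2 (-0.77, adjusted p = 0.0304), and with DESeq2 (-0.64, adjusted p = 0.0277) or voom (-0.83, adjusted p = 0.00462).

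With trimmed-mean scaling and no replicate block, Acsm5 was the 1 gene of the group called higher at LC against AL. With totals alone Acad10 (0.50, adjusted p = 0.0192) and Eci2 (0.46, adjusted p = 0.0127) were called higher too. The Acsm genes encode synthetases of the mitochondrial matrix that activate medium-chain fatty acids. Acsm5 had 245, 242, 213 and 196 CPM in LC livers, 180.1, 119 and 138 CPM in RF livers, and 158, 178 and 152 CPM in AL livers. All LC livers lay above all AL and RF livers. The log2 fold change was 0.46 (SE 0.15, adjusted p = 0.0343) at LC against AL and -0.62 (SE 0.15, adjusted p = 0.0126) at RF against LC. The first call held in 15 of 22 alternatives and was lost without any 1 of the AL livers, LC replicates 1 and 2 and RF replicate 3 (0.41 to 0.53, adjusted p of 0.0531 to 0.12), and the second, which held in 20, without RF replicate 2 (-0.49, adjusted p = 0.0742) or 3 (-0.59, adjusted p = 0.0552). Acsm1 (-0.11, SE 0.16) and Acsm3 (-0.23, SE 0.14), which also lie on chromosome 7, were not called at LC, with adjusted p of 0.609 and 0.238.

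Both ketone body genes of the group fell on day 3. Acat1, the thiolase that joins 2 acetyl-CoA into acetoacetyl-CoA and also acts in isoleucine breakdown, had 294, 294, 290.5 and 316 CPM in LC livers, 367, 356 and 415 CPM in RF livers, and 371, 559 and 500.5 CPM in AL livers. LC livers lay below all others, and its log2 fold change of -0.68 (SE 0.14, adjusted p = 0.00378) at LC against AL was called in all 22 alternatives. At RF against LC it was 0.34 (SE 0.14, adjusted p = 0.101), and at RF against AL -0.33 (SE 0.15, adjusted p = 0.462). At RF against LC, Acat1 was called with voom (0.36, adjusted p = 0.0469) and without AL replicate 2 (0.35, adjusted p = 0.0383). Bdh1, the dehydrogenase that makes 3-hydroxybutyrate, had 162, 189.8, 245 and 192 CPM in LC livers, 342, 326 and 336 CPM in RF livers, and 248, 388 and 362 CPM in AL livers. Its log2 fold change was -0.75 (SE 0.17, adjusted p = 0.00503) at LC against AL, and 0.76 (SE 0.17, adjusted p = 0.00742) at RF against LC. The highest LC liver lay close under the lowest AL liver, and the first call, which held in 19 of 22 alternatives, was lost with library totals alone (-0.42, adjusted p = 0.0515).

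Refeeding was read from RF against LC, which shares its LC livers with LC against AL, and from RF against AL. Set against LC, 5 of the 29 genes were called higher (17.2%, against 11.4% of all genes tested) and 1 lower (3.45%, against 10.7%), and the 20.7% called in either direction lay close to the 22.1% of all genes tested. The 5 were Acads, Acad9, Echs1, Eci1 and Bdh1, and the 1 was Acsm5. In some alternatives Hadh, Hadhb, Acat1, Cpt1a and Etfdh were also called higher, and Acadvl, Acadm, Acad10, Eci2, Etfb and Slc22a5 lower. LC and RF livers did not overlap for 11 genes higher at RF (17.7% of all genes tested did so) and for 2 lower (16.5% of all genes tested). The median of the 29 was 0.13, beside -0.02 for all genes, and with totals alone -0.07, beside -0.22. Of all genes called in that comparison, 51.5% were higher with trimmed-mean scaling and 19.8% with totals alone. With totals alone 4 of the 29 were called higher (13.8%, against 5.26% of all genes tested) and 6 lower (20.7%, against 21.3%). The 6 were Acadvl, Acadm, Acad10, Eci2, Etfb and Acsm5.

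At RF against AL, none of the 29 was called (7 of all genes tested were, 0.0547%, with 0.0156% higher and 0.0391% lower). In edgeR 4 of the 29 had an unadjusted p below 0.05 (13.8%, against 10.8% of all genes tested), and DESeq2 and voom, which called 100 and 50 genes in all, called none of the 29. The log2 fold changes were below 0 for 28 of the 29 genes, Bdh1 being the exception at 0.01 (SE 0.18), and with totals alone for 20. The median was -0.25, beside 0.01 for all genes tested, and with totals alone -0.13, beside 0.12. RF livers lay below all AL livers for 5 genes, Cpt2, Mlycd, Acadvl, Acadm and Etfb (9.56% of all genes tested did so), and for none above (9.38%). LC livers lay below all AL livers for 10 genes (17.1% of all genes tested) and above for 1 (18.7%).

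Ratios within a library do not move with its scaling. They were taken from FPKM, the deposited level per length and depth, and the 5 pairs below were picked after their values were seen, so they carry no test. Eci1 over Eci2 was 0.541 ± 0.030 in LC livers, 1.13 ± 0.145 in RF livers and 1.15 ± 0.260 in AL livers (SD, n = 4, 3 and 3), with LC livers at 0.497 to 0.563 and AL livers at 0.872 to 1.39. Acads over Acadvl was 0.195 ± 0.0217 in LC livers, 0.328 ± 0.0122 in RF livers and 0.331 ± 0.0682 in AL livers. In both pairs every LC liver lay below every RF and AL liver. Likewise, Echs1 over Hadha was 1.13 to 1.31 in LC livers, 1.64 to 1.78 in RF livers and 1.68 to 1.90 in AL livers. Acsm5 over Acsm1 was 0.424 to 0.661 in LC livers, 0.277 to 0.415 in RF livers and 0.295 to 0.410 in AL livers. Acat1 over Acaa2 was 0.131 to 0.170 in LC livers, 0.142 to 0.149 in RF livers and 0.158 to 0.190 in AL livers, so its LC livers overlapped the other groups.

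**Figure D5:**
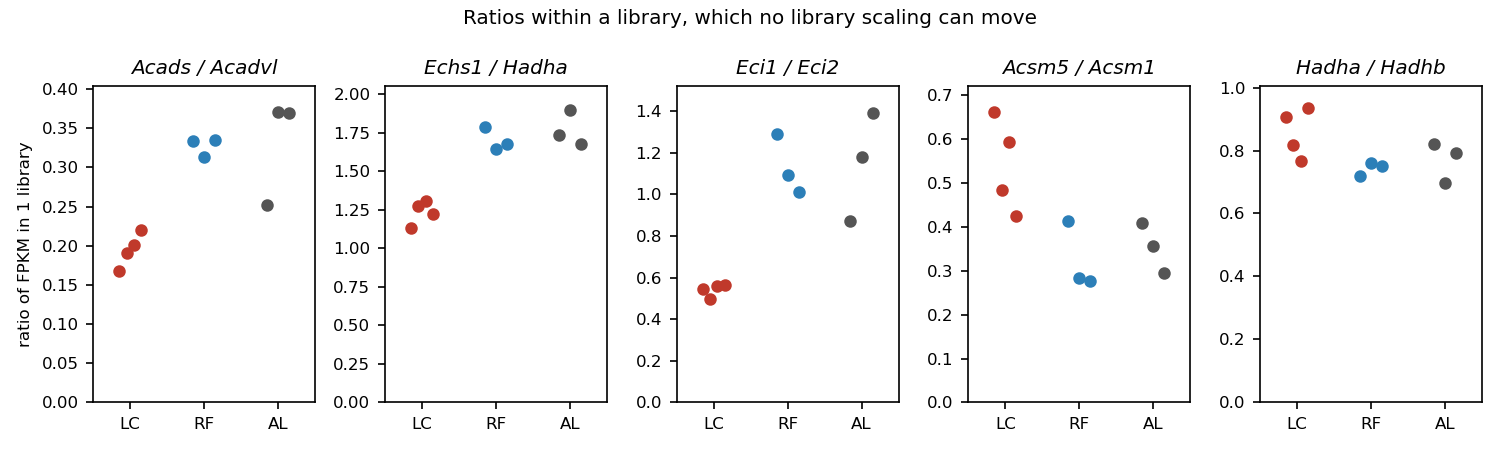
Ratio of FPKM of 2 genes within each library, for 5 pairs, in LC, RF and AL livers, on axes from 0. LC points lie apart from AL points in the first 4 pairs, such as 0.497 to 0.563 in LC and 0.872 to 1.39 in AL for Eci1 over Eci2, and overlap them in Hadha over Hadhb.

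Ratios of partner subunits were taken in the same way. Hadha over Hadhb was 0.857 ± 0.0777 in LC livers, 0.744 ± 0.0215 in RF livers and 0.771 ± 0.0645 in AL livers (SD, n = 4, 3 and 3), and LC and AL livers overlapped. Etfa over Etfb was 0.372 ± 0.0337 in LC livers, 0.456 ± 0.00956 in RF livers and 0.410 ± 0.0170 in AL livers. The RF livers, at 0.450 to 0.467, lay above every LC and AL liver, the highest of which reached 0.420 in both.

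Levels per length ran from 1003 FPKM for Etfb to 12.8 FPKM for Acad10 in AL livers. Acaa2 came next at 772 FPKM, then Acsl1 at 477 and Etfa at 409 FPKM. In the order by mean FPKM, neighbours whose AL livers did not overlap were Etfb and Acaa2, Acaa2 and Acsl1, Etfa and Eci1, Acsm5 and Acsm3, and Acsm3 and Acad9, and all other neighbours overlapped. Etfb, Acaa2, Acsl1 and Etfa were also the first 4 in LC livers. In between, Eci1 stood at rank 10 in LC livers against 5 in AL livers, Echs1 at 18 against 12, Acads at 26 against 21, and Acsm5 at 13 against 26.

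The libraries held 13871533 to 15801532 expected counts in LC livers, 14601704 to 15502191 in RF livers and 14179742 to 15899479 in AL livers. A principal component analysis of log2 CPM put 44.7% of the variance on its first axis, where LC livers lay at 24.8 to 41.1, RF livers at -23.2 to -15.0 and AL livers at -33.7, -30.1 and, for replicate 2, -10.2. AL replicate 2 was the lowest AL library for 19 of the 29 genes. Without it 12 were called lower at LC and none higher, beside 2167 lower and 2186 higher of all 13014 genes tested. Within LC, replicate 2 was the highest library for 16 of the 29 genes and replicate 1 the lowest for 16. Without LC replicate 2 the count was also 12 lower and none higher, beside 1959 lower and 1958 higher of all 12747 genes tested.

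Markers of liver cell types moved between the groups too. For the counts of called genes in the lists here and below, 15.6% of all genes tested were lower and 16% higher at LC against AL. At RF against LC 11.4% were higher and 10.7% lower. The 12 hepatocyte markers summed to 79025 to 88458 CPM in LC livers, 101062 to 107153 CPM in RF livers and 110563 to 128341 CPM in AL livers, and 9 of the 12 were called lower at LC against AL. The 10 sinusoidal endothelial markers summed to 320.1 to 347 CPM in LC livers, 285 to 336 CPM in RF livers and 216 to 232 CPM in AL livers, with 4 called higher at LC. Of 10 Kupffer cell markers 2 were called lower, and of 10 stellate cell markers 1. The 5 red blood cell markers summed to 274 to 406 CPM in LC livers, 325 to 1028 CPM in RF livers and 473 to 715 CPM in AL livers, with a median log2 fold change of -0.96 at LC and Alas2 (-1.15, adjusted p = 0.000361) and Hba-a2 (-1.22, adjusted p = 0.0364) called lower. Adipocyte markers were led by Cfd, at 2.83 to 18.5 CPM in LC livers, 1.47 to 3.13 CPM in RF livers and 49.2 to 142 CPM in AL livers, with Adipoq near 0 throughout, and muscle and pancreas markers summed to under 1 CPM in every library. The part of these shifts in the changes of the 29 genes was not tested.

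Among other ketone body genes, Bdh2, a cytosolic dehydrogenase, was called lower at LC against AL (-0.72, SE 0.16, adjusted p = 0.00493). Slc16a6, a carrier of ketone bodies in zebrafish liver, was called higher at RF against LC (0.74, SE 0.18, adjusted p = 0.0116).

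Of 9 further dehydrogenases and enzymes linked to the electron transfer flavoprotein, 5 were called lower at LC and 1 higher. The short and branched chain dehydrogenase Acadsb (-0.82, SE 0.13), the choline-pathway enzymes Dmgdh (-1.02, SE 0.20) and Sardh (-0.76, SE 0.16), Acad12 (-1.16, SE 0.31) and Etfrf1 (-0.62, SE 0.17) were lower, with adjusted p of 0.00068 to 0.0142, and Etfbkmt, a methyltransferase of the flavoprotein, was higher (1.23, SE 0.39, adjusted p = 0.0411). Acadsb, Dmgdh and Sardh were called higher at RF against LC. Acad12 adjoins Acad10, and both had counts that were not whole, which marks reads split between genes.

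Carnitine synthesis and transfer held 3 genes called lower and 1 higher of 9 at LC. Tmlhe (-1.13, SE 0.21), Aldh9a1 (-0.77, SE 0.18) and Bbox1 (-0.77, SE 0.14), enzymes of carnitine synthesis, were lower, with adjusted p of 0.00171 to 0.00557. Slc22a4, a related transporter, was higher (0.85, SE 0.20, adjusted p = 0.00624). Tmlhe and Aldh9a1 were called higher at RF against LC.

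Of 11 other acyl-CoA synthetases, 8 could be tested, and 4 were called lower at LC and none higher. They were the long-chain synthetase Acsl5 (-1.42, SE 0.24), Acss3, of short chains (-1.39, SE 0.23), Acsf2 (-0.76, SE 0.14) and Acsf3, the malonyl-CoA synthetase (-0.84, SE 0.18), with adjusted p of 0.00112 to 0.00452. In RF against LC 6 of the 8 were called higher and none lower. In the malonyl-CoA gate, 2 of 8 genes were called lower at LC and none higher: Acacb, the carboxylase at the mitochondrial surface, with 27.6 ± 18.6 CPM in LC livers, 135 ± 28.7 CPM in RF livers and 91.2 ± 25.8 CPM in AL livers (-1.73, SE 0.44, adjusted p = 0.0182), and the AMPK subunit Prkaa2 (-0.41, SE 0.13, adjusted p = 0.0246). For RF against LC Acacb (2.30, SE 0.44), Acaca (0.89, SE 0.19) and Prkaa2 (0.81, SE 0.13) were called higher, with adjusted p of 0.00136 to 0.00881.

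The propionate branch, which takes up what odd-chain fatty acids leave, had 3 of 6 genes called lower at LC and none higher. Pcca, a subunit of propionyl-CoA carboxylase, was at -1.51 (SE 0.17, adjusted p = 0.000159), the mutase Mmut at -0.94 (SE 0.14, adjusted p = 0.000578) and the epimerase Mcee at -0.29 (SE 0.10, adjusted p = 0.0459). Pcca, Mmut and Mmab were called higher at RF against LC. In the tricarboxylic acid cycle, which burns the acetyl-CoA, 11 of 18 genes were called lower at LC and 11 higher at RF against LC, with none the other way. Mdh2 (-0.88), Sdhc (-0.70), Suclg2 (-0.73) and Idh3b (-0.76) had the smallest p at LC, with SE of 0.12 to 0.14 and adjusted p of 0.00088 to 0.00136.

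Regulators and other targets of PPARA, the fatty acid receptor that drives these genes in fasting, did not move as 1 block. Of 20 regulators, Esrra (0.54, SE 0.13, adjusted p = 0.00668) and Sirt1 (1.04, SE 0.26, adjusted p = 0.0113) were called higher at LC and Sirt5 lower (-0.65, SE 0.17, adjusted p = 0.0108). Ppara itself averaged 339 ± 66.7 CPM in LC livers, 372 ± 40.5 CPM in RF livers and 412 ± 39.6 CPM in AL livers (-0.28, SE 0.16, adjusted p = 0.2 at LC against AL). Against LC, RF livers had Sirt5 called higher, and Esrra, Sirt1, Tfeb and Nrf1 lower. Of 23 PPARA targets outside mitochondrial oxidation, 7 were called lower at LC and none higher, among them Fitm1 (-1.22), Cd36 (-1.15), Fabp1 (-0.90) and Cidea (-2.37, at 0.678 CPM in LC livers against 3.49 CPM in AL livers), with adjusted p of 0.000727 to 0.00952. Fgf21 (0.95, SE 0.47) and Pdk4 (0.02, SE 0.62) were not called at LC, with adjusted p of 0.153 and 0.984. In RF against LC 3 of the 23 were called higher and 6 lower, and the 6, named after their values were seen, were Cyp4a10, Cyp4a14, Acot3, Acot4, Angptl4 and Pex11a.

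Beta-oxidation is known as a periportal function of the lobule, so genes of both zones were counted. Of 11 periportal genes, 7 were called lower at LC and none higher, led by Ass1 (-1.73), Arg1 (-1.11), Aldh1b1 (-2.23) and Gls2 (-0.94), with adjusted p of 0.000159 to 0.00277. Of 10 pericentral genes, 5 were called lower, led by Oat (-1.91), Rgn (-1.07), Cyp1a2 (-0.94) and Lect2, with adjusted p of 0.000232 to 0.00137, and 2 higher, Lgr5 (0.75, adjusted p = 0.0111) and Axin2 (1.49, adjusted p = 0.0257). Both zones thus had more genes lower than higher at LC.

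The genes whose log2 CPM followed Eci1 most closely across the 10 libraries, out of 5637 with a mean of at least 20 CPM, were Pcca (Pearson r = 0.991), Nqo2 (0.991) and Dera (0.989). For Cpt1a they were Papss2 (0.976), Fn1 (0.969) and Zc3h15 (0.954). These r describe likeness over 10 libraries that share the group differences, and carry no p. Among these candidates, Pcca of the propionate branch and Nqo2 thus stood nearest to Eci1, with almost the same r. The nearest candidates differed between Eci1 and Cpt1a, and likeness to other genes of the group was not ranked.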

How the data were processed

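Liver RNA, enriched for poly(A) tails and sequenced without strand per the labels' protocols (RNA integrity numbers 6.6 to 8.5), gave 10 libraries, grouped by their labels. The authors deposited expected counts, estimated counts that need not be whole (10.9% of values were not), and FPKM, fragments per length and depth. Per the submitters' processing notes, GRCm39 was the build, and HISAT and Bowtie2, without versions or roles, were among the tools. No source used here names the counting program. Estimated counts split reads between like genes, and 4 of the 29 genes had counts that were not whole (Slc22a5, Acad9, Acad10 and Acsm3). Without strand, overlapping genes such as Acsm3 and Eri2 cannot be told apart.

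Counts were rounded, filtered with filterByExpr, scaled by trimmed means of M values (TMM), and fitted with a mean for each group over all 10 libraries in edgeR 4.0.16 (R 4.3.3, robust quasi-likelihood F test), with Benjamini-Hochberg adjustment over 12789 genes. SE was taken as the size of the log2 fold change divided by the root of F. The steps were tested on simulated data in which as many genes rose as fell, so the choice of scaling was not tested. Alternatives used limma 3.58.1 and DESeq2 1.42.0, other scalings and filters, and each library left out. FPKM served for levels between genes, with a pseudocount of 1 or 0.1 in tests. Library totals were 13871533 to 15899479 counts, and no count of the 29 genes fell below 389.

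The 29 genes and all lists were chosen with earlier results of these data known. All 29 are named, and the text gives values in every library for those called and for Cpt1a, Cpt2, Acadm, Acadvl, Hadha, Hadhb and Bdh1. From each further list it names up to 4 called genes with the smallest p at LC against AL, plus Ppara, Fgf21 and Pdk4. A few results under this rule are left out here. Other genes named from lists, including those named for RF against LC, further called genes of a short list, and Slc22a5, Etfdh and Etfa in detail, were chosen after their values were seen. Promoters are from RefSeq in GRCm38.p6, and no coordinate was converted. Protein identity between family members was not analysed here.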

Additional observations from a re-analysis of the deposited data

Results flagged for a closer look

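Acat1 in LC replicate 4 stood apart from the other LC libraries. It had 316 CPM there, against 290.5 to 294 CPM in LC replicates 1, 2 and 3, a gap of 0.868 of the group's whole range. Chance puts a library this far out in about 1 in 20 groups of this size, and 29 genes were looked at. The LC libraries, with or without replicate 4, lay below all AL libraries.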

How the results depend on the processing

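Over the 22 alternatives, the 9 genes called lower at LC against AL, the 5 called higher and the 1 called lower at RF against LC, and Acsm5 at LC all kept their direction, and no call reversed. Over all single values of the 29 genes, 1674 of 1914 kept their side, 44 lost and 56 gained a call, and 140 uncalled values changed sign. Of the 29, 15 were called lower at LC with voom, beside 2424 of all 12789 genes tested. With log2(FPKM + 1) without a filter 5 were, beside 667 of 17096. Called higher were 3 with library totals, with log2(FPKM + 1) and with log2(FPKM + 0.1), beside 4395, 4291 and 4294 of 12789. With FPKM without a filter 2 were higher, beside 4031 of 17096. The median at LC was 0.00929 with totals and 0.0129, 0.0127 and 0.0129 with these 3 FPKM fits, and at RF against LC -0.0745, and -0.0723, -0.0727 and -0.0723. At RF against LC 6 of the 29 were lower with totals, beside 2724 of all 12789 genes tested. Each FPKM fit also gave 6, beside 2782 and 2681 of 12789 with a filter and 2496 of 17096 without. With the length trend removed 2 were lower, beside 1298 of 12127. With FPKM without a filter 3 were higher, beside 622 of 17096. All genes called at RF against AL were 100 with DESeq2, 50 with voom, 13 without a filter, 3 with FPKM without a filter, and 1 with log2(FPKM + 1), with log2(FPKM + 0.1) or with the length trend removed. Leaving out 1 library gave 2110 to 4353 genes called at LC, 1 to 13 at RF against AL and 1435 to 3141 at RF against LC. Of the 29 it gave 7 to 12 lower and 0 to 1 higher at LC, and 4 to 8 higher and 0 to 1 lower at RF against LC, with medians of -0.39 to -0.25, -0.30 to -0.15 (RF against AL) and 0.08 to 0.18. The r of deviations from the group mean was -0.06 to 0.30 over 8 pairs of the same replicate number and -0.23 to 0.17 over 25 of different number. The highest r were those of replicate 1 (0.298) and replicate 2 (0.216) between LC and RF. Whether replicate numbers mark pairs or a shared batch was not tested. With the replicate block, 1957 of 12789 genes were called higher and 1901 lower at LC, and 1613 higher and 1617 lower at RF against LC. The block called 8 of the 29 lower and 1 higher at LC, and 5 higher and 2 lower at RF against LC. It lost Cpt2 (-0.32, adjusted p = 0.079) and Acsm5 (0.37, adjusted p = 0.0585) at LC and gained Slc22a5, higher at LC (0.63, adjusted p = 0.0379) and lower at RF against LC (-1.27, adjusted p = 0.00343). The causes of these shifts were not tested, and dropping a library also leaves fewer samples.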
